A study of Mus musculus with 51 samples.

Results

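Onecut1, Onecut2, Prox1, Cebpa, Gata4, Gata6, Hhex and Tbx3 are liver-enriched transcription factors that are not nuclear receptors. They were taken by symbol from the deposited expression matrix, where they are 8 of 33773 gene symbols, and all 8 were detected and tested in both tissues. The rule takes them by name and uses no measured value. RNA was sequenced from mouse hepatocytes and from mouse liver, in 6 groups of libraries. The question was how adult hepatocyte gene expression depends on the FoxA factors Foxa1, Foxa2 and Foxa3, which open chromatin at liver enhancers, and on the nuclear receptor HNF4a.

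The 4 FoxA triple null libraries came from FoxA1L/L, FoxA2L/L, FoxA3-/- mice that were injected at 8 weeks of age with adeno-associated virus carrying Cre under the hepatocyte-specific Tbg promoter, so the floxed genes were to be deleted in hepatocytes only. Per the design text, controls of that genotype received a virus expressing GFP. The 4 FoxA3 null libraries share the germline FoxA3 loss with the triple null and were used as its reference. That they are the GFP virus controls is not stated, so deletion and virus cannot be told apart with certainty in that comparison. The 3 FoxA1/A2 lox libraries are undeleted, and the 4 FoxA1/A2 Cre alfp libraries carry the FoxA1 and FoxA2 deletion. Both of these groups have FoxA3, and the virus, the age and the time of deletion are not given for them. The 6 liver libraries were made from liver and not from hepatocytes and are named by barcode: 4 carry the label HNF4a null, deleted in adult liver, and 2 the label HNF4a control. Libraries of a group are numbered samples, and the labels do not say whether each is a separate animal, so p-values measure the spread between these samples.

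These factors act as a network in the liver. Hhex and Prox1 are homeobox factors needed for the liver bud to form and for hepatoblasts to move out of it, Gata4 and Gata6 are zinc finger factors that work with FoxA in foregut endoderm, and Tbx3 is a T-box repressor that keeps hepatoblasts dividing and marks pericentral hepatocytes in the adult. Onecut1 (HNF6) and Onecut2 are cut homeodomain factors that guide the choice between hepatocyte and bile duct, and Cebpa is a leucine zipper activator of mature metabolic genes. Several of them are also made by other liver cells, Gata4 and Hhex by endothelium, Prox1 by lymphatic endothelium, Onecut1 by bile duct cells and Cebpa by myeloid cells.

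The promoters of the members with the largest difference in the triple null against FoxA3 null and in the liver comparison are shown first. RefSeq promoters (GRCm38.p6) from 250 bases before to 50 after the start of transcription matched 4 of the 8 members, with 5 promoters. They are those of Hhex, which was lower in the triple null than in FoxA3 null, and Cebpa, which was lower in the libraries labelled HNF4a null than in their controls. Capitals mark the matches to 8 searched motifs.
Hhex, chr19:37434591-37434890, plus strand: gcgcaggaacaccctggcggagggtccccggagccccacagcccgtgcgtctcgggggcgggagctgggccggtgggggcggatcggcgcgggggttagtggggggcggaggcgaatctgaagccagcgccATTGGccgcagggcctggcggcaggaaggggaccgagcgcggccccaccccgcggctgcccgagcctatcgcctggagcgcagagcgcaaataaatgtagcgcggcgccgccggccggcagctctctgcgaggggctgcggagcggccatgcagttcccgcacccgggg
Cebpa, chr7:35119043-35119342, plus strand: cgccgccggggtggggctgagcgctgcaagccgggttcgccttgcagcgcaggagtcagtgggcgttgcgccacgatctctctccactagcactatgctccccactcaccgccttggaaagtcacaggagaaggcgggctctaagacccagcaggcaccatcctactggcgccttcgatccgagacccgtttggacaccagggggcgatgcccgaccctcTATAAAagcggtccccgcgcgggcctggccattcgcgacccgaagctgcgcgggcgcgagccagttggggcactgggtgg
The capitals in Hhex are the CCAAT box (CCAAT, here on the minus strand), which 37.4% of 32851 promoters hold. Those in Cebpa are the TATA box (TATAAA), held by 13.6% of promoters, whose first base lies at position -30. The FOXA motif, searched as TGTTTAC and also in the form TATTTAC (6.54% of promoters), was matched in neither window on either strand. Nor was the HNF4 motif CAAAGTCCA (0.475%) or the shorter HNF4 motif CAAAG (53.9%), whose letters overlap with it. The same held for the CEBP motif TTGCNNAA (10.8%), for the ONECUT motif in its forms ATCAAT as well as ATCGAT (8.4%) and for the GATA motif AGATAA (11.2%). Bases G and C made up 75.7% of the Hhex window and 67.3% of the Cebpa window.

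The labels were checked first. Foxa3 was at or below 0.0114 RPKM (reads scaled by gene length and sequencing depth) in all 8 FoxA3-deficient libraries and averaged 25.0 RPKM in lox and 31.1 in Cre alfp. Foxa2 averaged 0.366 RPKM in the triple null against 13.7 in FoxA3 null, and Foxa1 3.28 against 8.50. In Cre alfp Foxa2 averaged 1.09 and Foxa1 1.24 RPKM, against 12.5 and 6.72 in lox. Foxa1 was higher in the triple null than in Cre alfp (log2 difference 0.94, limma adjusted p = 0.000403), so the groups with this deletion differed in the Foxa1 RNA that remained. Hnf4a went against its label, being at 118 and 126 RPKM in the controls but at 487 to 545 where the label says HNF4a null, and the RPKM does not separate the deleted part of the gene from the rest. All 12 hepatocyte-defining genes were detected in every group. Depth relative to the shallowest library was 2.01 to 4.06 in hepatocytes and 1 to 1.10 in liver.

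Cebpa had the highest mean of the members per gene length in every group, from a mean of 19.5 RPKM in the libraries labelled HNF4a null to 267 RPKM in the triple null. The triple null and FoxA3 null groups differed in what came next: Tbx3 (27.4 RPKM) and Hhex (22.9) overlapped each other in the triple null, whereas in FoxA3 null Hhex (62.7) stood above Tbx3 (15.5) without overlap. Onecut2 and Prox1 followed in both, at group means of 7.38 to 9.67 RPKM, and overlapped. Gata4, Gata6 and Onecut1 were the 3 lowest in both, at group means of 2.11 to 5.85 RPKM. In hepatocytes, Onecut1 was the least steady member between libraries of a group, with a residual SD of 0.81 on the scale of log2(RPKM + 1), and 97.3% of genes had a smaller one. Within lox, the highest Onecut1 value was 11.3 times the lowest. Hhex (0.59), Tbx3 (0.44) and Prox1 (0.40) also spread more than the median gene (0.23), while Gata4, Onecut2, Gata6 and Cebpa ranged from 0.20 to 0.27.

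**Figure D1:**
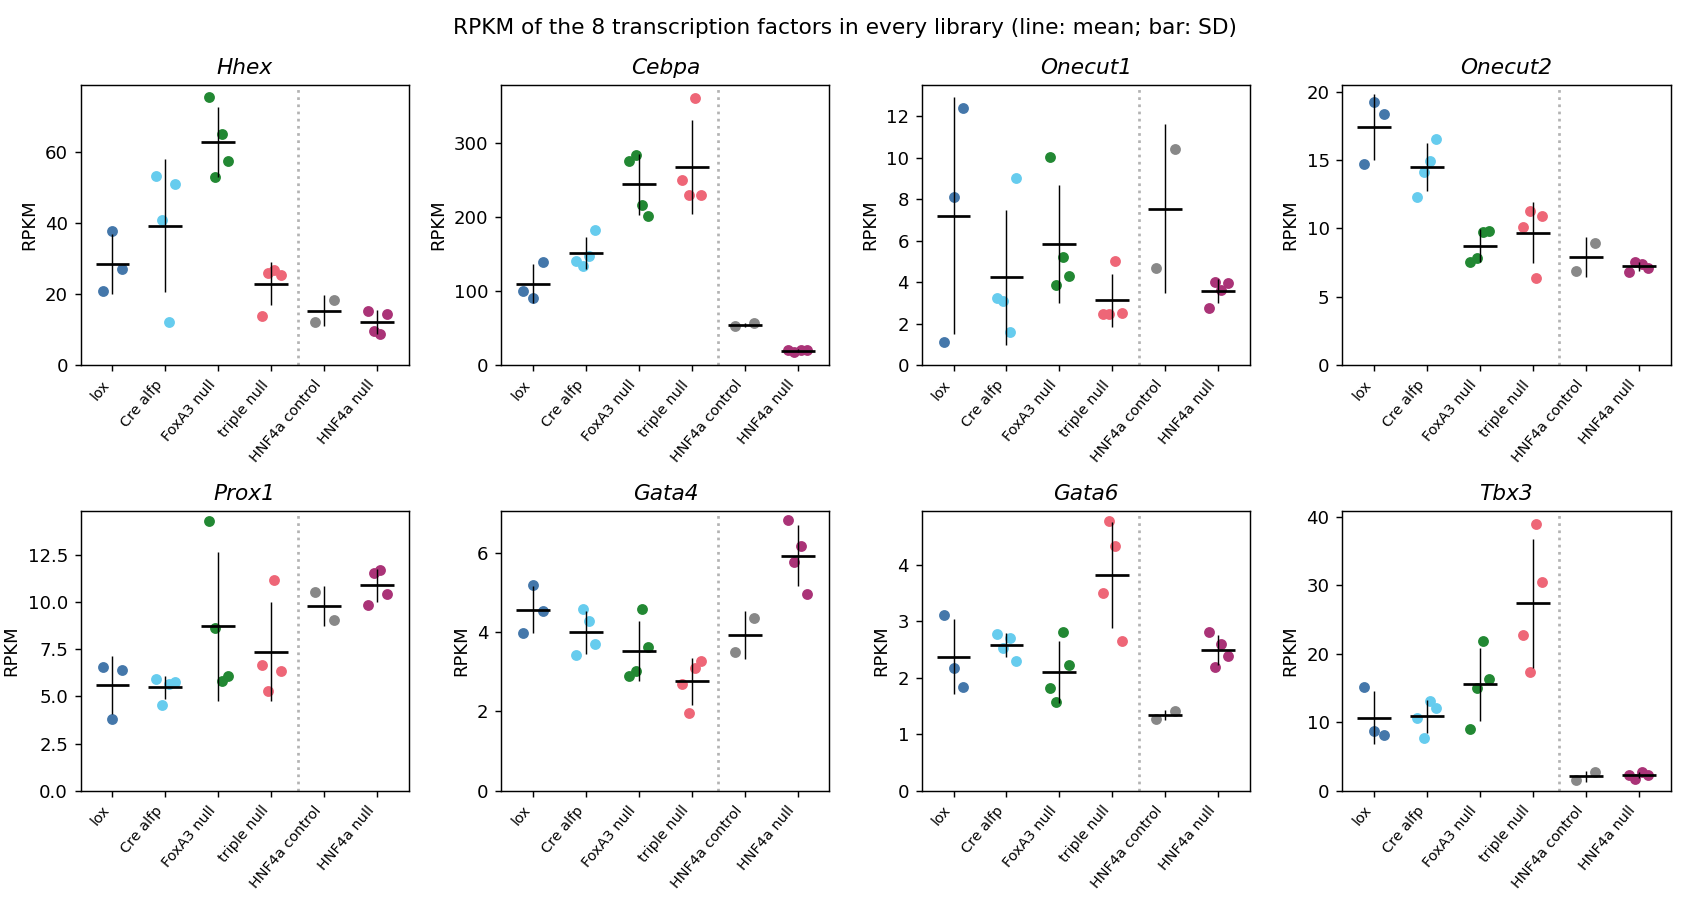
RPKM of each member (one panel each, linear axis from 0) in every library of the 6 groups; points are libraries, horizontal lines group means and vertical bars SD. The dotted line parts hepatocytes from liver, which were fitted separately. Hhex is high in all 4 FoxA3 null libraries (53.0 to 75.5) and low in the triple null (13.7 to 26.6), and Cebpa is at 17.3 to 20.5 in the libraries labelled HNF4a null against 52.4 and 56.2 in the controls.

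Among hepatocytes that lacked FoxA3, Hhex was lower and Gata6 higher where FoxA1 and FoxA2 had also been deleted, and the other 6 members did not pass the test. A member passed at a Benjamini-Hochberg adjusted p under 0.05 over 11500 genes in limma on log2(RPKM + 1), and differences below are on that scale. The 2 of 8 compare with 29.7% of all genes that passed in this comparison. The median of the members was -0.03 and that of all genes 0.05.

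Hhex stood at 13.7, 25.9, 26.6 and 25.2 RPKM in the triple null and at 75.5, 53.0, 65.0 and 57.4 in FoxA3 null. Every triple null library lay below every FoxA3 null library. The mean fell to 36.5% of the reference, a log2 difference of -1.45 ± 0.38 (SE, n = 4 and 4, limma adjusted p = 0.01). Groups without overlap were found for 1 of the 8 members, Hhex, and for 27.9% of all genes. Hhex was also the only 1 of 8 to pass with an absolute difference of at least 1, which 8.11% of genes did. Hhex passed in each fit that left out 1 library of either group, with differences from -1.53 to -1.23.

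Genes of sinusoidal endothelium, which lines the liver's blood channels and also makes Hhex and Gata4, were lower in the triple null. Of 12 tested among 14 listed, 7 fell and none rose, with a median of -0.90, while 12.3% of all genes fell and the median of all was 0.05. Their summed level was 13.7 to 27.1 RPKM in the triple null and 40.6 to 64.6 in FoxA3 null. None of the 14 was listed at 0 in every library of a group. Of 5 stellate cell genes tested among 12 listed, 2 fell, with sums of 14.8 to 58.8 against 53.1 to 81.1 RPKM. The part of either cell type in the Hhex difference was not tested, and in bulk RNA fewer cells of a type and less RNA per cell cannot be told apart. The highest endothelial sum in the triple null (27.1) was in library 1, which had the lowest Hhex (13.7). In FoxA3 null, libraries 1 and 3 had the highest endothelial sums (61.0 and 64.6) and the highest Hhex (75.5 and 65.0), while libraries 2 and 4 had sums of 48.8 and 40.6 and Hhex at 53.0 and 57.4. In the liver libraries the endothelial genes summed to 208 to 276 RPKM while Hhex was at 8.58 to 18.4.

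Gata6 was at 3.50, 4.79, 4.34 and 2.66 RPKM in the triple null and at 1.81, 1.57, 2.82 and 2.23 in FoxA3 null. Only the lowest triple null library overlapped the reference. The rise was 0.63 ± 0.17 (SE, n = 4 and 4, limma adjusted p = 0.0109), a mean of 181% of the reference. Its relative Gata4, at 2.70, 1.95, 3.10 and 3.28 RPKM against 2.90, 3.02, 4.57 and 3.62, differed by -0.27 with a 95% interval of -0.58 to 0.04 (limma adjusted p = 0.183).

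Tbx3 was at 22.7, 17.3, 39.0 and 30.4 RPKM in the triple null and at 8.94, 15.0, 21.8 and 16.4 in FoxA3 null. The highest FoxA3 null library overlapped 1 triple null library. The difference of 0.78 ± 0.28 (SE, n = 4 and 4) missed the threshold, with a limma adjusted p of 0.0531. It passed without FoxA3 null library 3 (0.95) and without triple null library 2 (0.97).

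Cebpa was high in both groups, at 249, 229, 361 and 229 RPKM in the triple null and 275, 284, 216 and 202 in FoxA3 null. The ranges overlapped, the difference was 0.12 and its 95% interval ran from -0.27 to 0.51 (limma adjusted p = 0.661). Neutrophil and monocyte genes, from cells that can also make Cebpa, were at higher levels in the triple null. S100a8 and S100a9, the 2 of 8 listed that reached the minimum level, did so mainly through the triple null, so no test is given for them, and S100a8 averaged 32.4 RPKM there and 0.788 in FoxA3 null. The list summed to 9.69 to 111 RPKM against 0.884 to 2.12. Ccr2, Mpo, Elane and Itgam were under 0.1 RPKM in every FoxA3 null library. The part of these cells in the Cebpa level was not tested. Of the other marker lists, 0 of 8 Kupffer cell, 0 of 3 bile duct and 0 of 1 lymphatic genes tested passed, no lymphocyte gene was high enough to be tested, and 2 of 4 red cell genes rose and 1 fell. Of the 12 hepatocyte-defining genes 3 rose and 6 fell. Over all genes 17.4% rose and 12.3% fell.

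Onecut1 was at 2.48, 2.44, 5.04 and 2.53 RPKM in the triple null and 10.0, 3.87, 5.22 and 4.27 in FoxA3 null. Triple null library 3 lay within the FoxA3 null range and the other 3 triple null libraries below it. The difference of -0.70 had a 95% interval from -1.80 to 0.40, which takes in a large fall as well as a rise (limma adjusted p = 0.33). Onecut2 differed by 0.11 (interval -0.23 to 0.46) and Prox1 by -0.18 (interval -0.73 to 0.37), and neither passed.

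The authors' deposited table for this comparison, whose p-values come from their own processing, gave more calls for these genes. It had adjusted p under 0.05 for 5 of the 8 members and for 42.7% of its genes. In the authors' deposited table Hhex was at -1.32, Onecut1 at -0.92, Gata4 at -0.52, Gata6 at 0.81 and Tbx3 at 0.86. The calls for Onecut1 (adjusted p = 0.00659), Gata4 (0.025) and Tbx3 (0.0095) in the authors' deposited table were not made on RPKM.

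**Figure D2:**
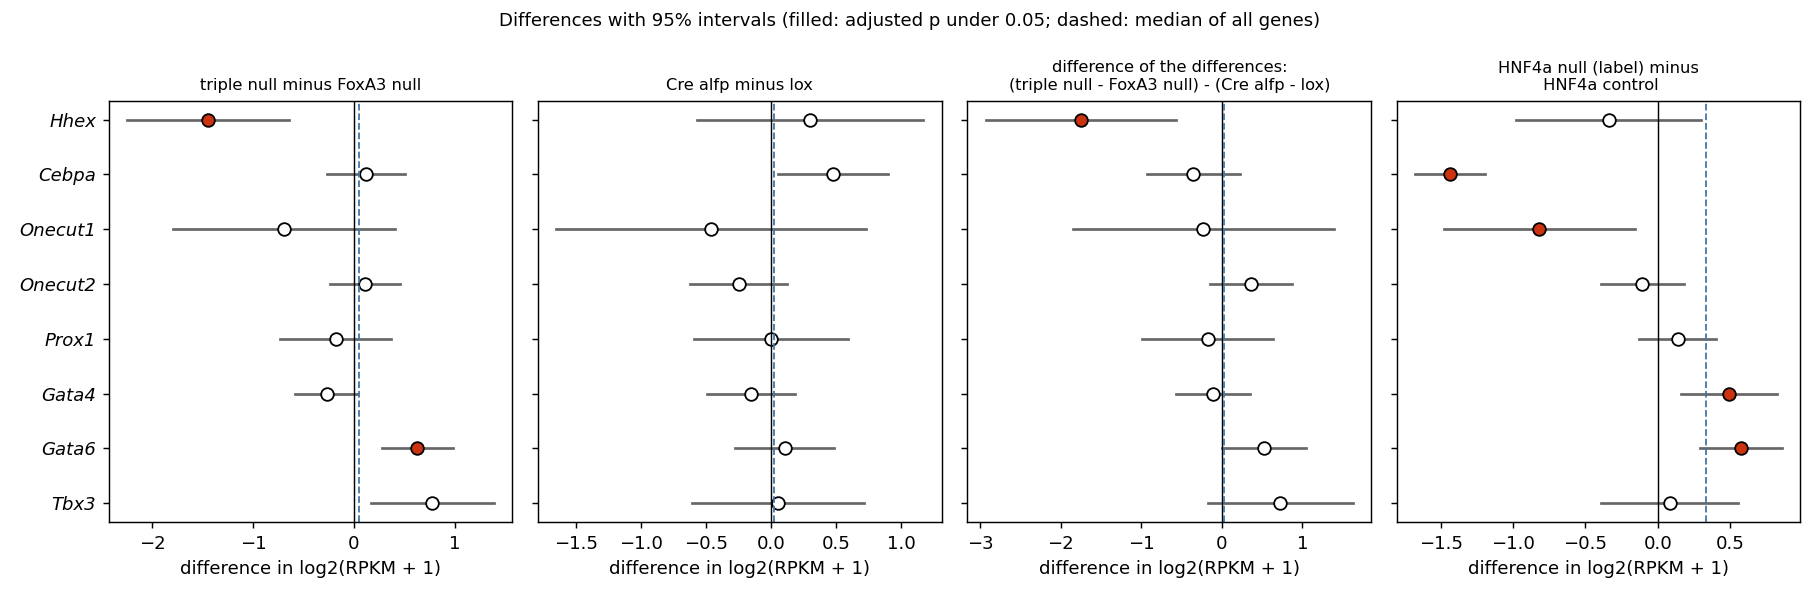
Log2 differences (x axis, difference in log2(RPKM + 1)) of each member with 95% intervals in 4 comparisons; filled points have an adjusted p under 0.05 and the dashed line is the median of all genes. Hhex (-1.45) and Gata6 (0.63) are filled in the first panel, no member in the second, Hhex in the third and Cebpa, Onecut1, Gata4 and Gata6 in the fourth, where the median of all genes is 0.34.

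Deletion of FoxA1 and FoxA2 with FoxA3 present changed no member detectably. In Cre alfp against lox, 0 of 8 members passed in limma, against 5.46% of all genes, and 1 of 8 (Cebpa) had an unadjusted p under 0.05. Only limma was run on these values. Groups overlapped for all 8, while 19.9% of all genes had groups without overlap. Cebpa, at 99.7, 89.9 and 139.7 RPKM in lox against 141, 133, 147 and 182 in Cre alfp, differed by 0.47 with a 95% interval of 0.05 to 0.89 (limma adjusted p = 0.21). The 3 lox libraries held Hhex at 20.8, 37.6 and 26.9 RPKM and the Cre alfp libraries at 53.1, 40.9, 12.1 and 50.9. Cre alfp library 3 held less Hhex than any lox library and the other 3 more. The 95% interval of the Hhex difference, -0.57 to 1.17, does not reach the -1.45 measured without FoxA3.

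The difference between these 2 deletion effects was tested directly as an interaction. Hhex was the 1 of 8 members to pass, against 14.4% of all genes, with a difference of differences of -1.75 ± 0.55 (SE, limma adjusted p = 0.0486). The call was at the edge of the threshold. Of the fits that left out 1 of the 15 hepatocyte libraries, only that without Cre alfp library 3 kept it, and the values ranged from -2.22 to -1.53. That library had the highest endothelial and stellate sums of the group (107 and 148 RPKM) beside the lowest Hhex (12.1), and their part in it was not tested. The interaction of Gata6 (0.53, limma adjusted p = 0.163) and Tbx3 (0.73, limma adjusted p = 0.264) did not pass.

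Onecut2 and Cebpa parted the 8 FoxA3-deficient libraries from the 7 with FoxA3 without overlap, as 1277 of 11500 genes (11.1%) did. Onecut2 ranged from 6.40 to 11.3 RPKM without FoxA3 and from 12.3 to 19.2 with it, and Cebpa from 202 to 361 without and 89.9 to 182 with it. FoxA3 genotype, the virus and anything else that set these mice or their libraries apart cannot be told apart here. Relative depth was 2.01 to 2.42 without FoxA3 and 2.23 to 4.06 with it. The RPKM of all genes summed to 726455 to 921947 per library without FoxA3 and to 1041571 to 1328383 with it, without overlap. The 3 comparisons across these sides share libraries with each other and with those above, so their values are given side by side only. The median of all genes was 0.10 in FoxA3 null against lox and 0.13 in both others. Relative to it, Onecut2 was at -1.02 in FoxA3 null against lox, at -0.94 in the triple null against lox and at -0.68 in the triple null against Cre alfp, and Cebpa at 1.05, 1.14 and 0.68.

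In FoxA3 null against lox, 3 of 8 members passed, against 34.8% of genes. Onecut2, at 7.53, 7.85, 9.77 and 9.81 RPKM in FoxA3 null and 14.7, 19.2 and 18.4 in lox, fell by 0.92 (SE 0.17, n = 4 and 3, limma adjusted p = 0.00212). Cebpa rose by 1.16 (SE 0.20, limma adjusted p = 0.00116), to a mean of 222% of lox. Hhex passed at 1.14 (limma adjusted p = 0.0423) but in none of the 7 fits that left out 1 library of these groups, where its difference was 0.94 to 1.36. Groups without overlap were found for 3 of 8 members and 40.1% of genes, and an absolute difference of at least 1 beside a call for 2 of 8, Cebpa and Hhex, and 7.19% of genes.

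In the triple null against lox, 5 of 8 passed, against 42.5% of genes. Onecut2 was at 10.1, 11.3, 6.40 and 10.9 RPKM in the triple null and fell by 0.81 (SE 0.17, n = 4 and 3, limma adjusted p = 0.00217). Tbx3 was at 15.1, 8.66 and 8.14 RPKM in lox and rose by 1.27 (SE 0.31, limma adjusted p = 0.00454), and Cebpa rose by 1.28 (SE 0.20, limma adjusted p = 0.000176). The neutrophil and monocyte list summed to 1.08 to 1.72 RPKM in lox against 9.69 to 111, and its part in the Cebpa difference was not tested. Gata4 was at 3.99, 5.19 and 4.54 RPKM in lox and fell by 0.58 (SE 0.16, limma adjusted p = 0.00955). Gata6 rose by 0.51 (SE 0.18, limma adjusted p = 0.0331), and this call was lost without lox library 2 (0.47) or 3 (0.39), without triple null library 2 (0.41) or 3 (0.45), with median (0.37) or quantile (0.43) scaling, and, at 0.51 each, with no filter or with only the groups compared in the fit. Hhex did not pass here (-0.31, 95% interval -1.18 to 0.56, limma adjusted p = 0.566) and its groups overlapped. Of 12 endothelial genes tested 6 fell and none rose, with sums of 51.5 to 85.0 RPKM in lox, and their part in the Gata4 difference was not tested. Groups without overlap were found for 4 of 8 members and 46.3% of genes, and calls with an absolute difference of at least 1 for 2 of 8, Cebpa and Tbx3, and 13.5% of genes.

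In the triple null against Cre alfp, 4 of 8 passed, against 41.2% of genes. Tbx3, at 10.6, 7.64, 13.1 and 12.0 RPKM in Cre alfp, rose by 1.22 (SE 0.28, n = 4 and 4, limma adjusted p = 0.00375) and its groups did not overlap. The neutrophil and monocyte list summed to 1.59 to 4.13 RPKM in Cre alfp, and its part in the Cebpa difference was not tested. Cebpa rose by 0.80 (SE 0.18, limma adjusted p = 0.00321) and Onecut2 fell by 0.56 (SE 0.16, limma adjusted p = 0.0134). Gata4 fell by 0.42 (limma adjusted p = 0.0333), a call lost without Cre alfp library 2 (-0.36) or 3 (-0.39) or triple null library 1 (-0.42) or 2 (-0.31). With no filter this Gata4 call was lost as well. Of 12 endothelial genes tested 11 fell and none rose here, with a median of -1.12 and sums of 13.7 to 27.1 RPKM in the triple null and 29.3 to 107 in Cre alfp. Their part in the Gata4 difference was not tested. Hhex did not pass (-0.61, limma adjusted p = 0.21) but did without Cre alfp library 3 (-1.08). Groups without overlap were found for 4 of 8 members, against 39.6% of genes, and a call with an absolute difference of at least 1 for 1 of 8, Tbx3, against 10.3% of genes.

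The authors' deposited tables called Hhex lower in both of these comparisons of the triple null, whereas on RPKM it passed in neither (-0.31 against lox and -0.61 against Cre alfp). Against Cre alfp, the p-values of the authors' deposited table, once adjusted by Benjamini-Hochberg here, were under 0.05 for 5 of 8 members and 50.9% of genes, with Hhex at -1.13, Onecut2 at -0.84, Gata4 at -0.63, Cebpa at 0.60 and Tbx3 at 0.58. Against controls without deletion it was 4 of 8 members and 51.6% of genes in the authors' deposited table, with Onecut2 at -1.21, Hhex at -0.93, Gata4 at -0.91 and Cebpa at 1.05. Tbx3 (0.62, adjusted p = 0.201) and Gata6 (0.45, adjusted p = 0.0953) were not called in the authors' deposited table, whereas both passed on RPKM against lox.

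The libraries labelled HNF4a null held less Cebpa and less Onecut1 and more Gata4 and Gata6 than their controls. The 4 of 8 that passed over 12434 genes compare with 52.8% of all genes. The median of all genes was itself 0.34 higher there, so the members' differences are also given relative to that median.

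Cebpa was at 52.4 and 56.2 RPKM in the control livers and at 20.4, 17.3, 19.8 and 20.5 in those labelled HNF4a null. The groups did not overlap, and the libraries within each lay close together. The mean fell to 35.9% of control, a difference of -1.43 ± 0.10 (SE, n = 4 and 2, limma adjusted p = 9.57e-05). Set against the shift of the median gene it was -1.77. Groups without overlap were found for 4 of 8 members and for 67.0% of genes. With an absolute difference of at least 1, Cebpa was the 1 of 8 called, against 14.5% of genes.

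Onecut1 was at 4.67 and 10.4 RPKM in the control livers and at 2.77, 4.02, 3.61 and 3.95 in those labelled HNF4a null. The controls lay above without overlap, 1 of them narrowly. The fall of 0.82 (SE 0.28, limma adjusted p = 0.0434) was -1.16 relative to the median of all genes. Without control ATTCCTA it was -0.31 and not called, in a fit where the 1 control left is assumed to vary like the other group. The call was also lost without each of the 4 libraries labelled HNF4a null in turn (-0.87 to -0.73). With RPKM at least 0.1 or no filter the Onecut1 call was lost too. Bile duct genes, from cells that also make Onecut1, rose in these libraries, 8 of 10 tested passing and none falling, while 41.1% of all genes rose, and their median was 0.71 relative to that of all genes, with sums of 124 to 225 RPKM against 18.7 and 20.9. Their part in the Onecut1 difference was not tested.

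Gata4 was at 3.50 and 4.35 RPKM in the control livers and at 6.82, 5.76, 6.17 and 4.97 in those labelled HNF4a null. Gata6 was at 1.28 and 1.41 RPKM against 2.81, 2.20, 2.60 and 2.38. Neither gene's groups overlapped. Gata4 rose by 0.49 (SE 0.14, limma adjusted p = 0.0244) and Gata6 by 0.57 (SE 0.12, limma adjusted p = 0.00765). Relative to the median of all genes these were 0.16 and 0.24, and with median scaling neither call was made (0.22 and 0.31). Without control ACTGATA, in a fit of the same kind with 1 control, neither was called (0.37 and 0.53), nor was Gata4 without library GTGGCCA (0.47). Of 14 endothelial genes tested 3 rose and none fell, while 41.1% of all genes rose, and their median was -0.23 relative to that of all genes. Their sums were 259 to 276 RPKM against 208 and 227 in the controls, and their part in the Gata4 difference was not tested. Of the other members, Hhex differed by -0.34, Onecut2 by -0.11, Prox1 by 0.14 and Tbx3 by 0.08, none passing. Relative to the median gene these were -0.68, -0.44, -0.20 and -0.25, so Prox1 and Tbx3 turned in sign. Tbx3 was low in all liver libraries, at 1.52 to 2.67 RPKM, against 7.64 to 39.0 in hepatocytes. Liver and hepatocytes were fitted separately, and this gap was not tested. A list of 32 other liver transcription factors also summed lower in liver, to 660 to 742 RPKM against 1472 to 2396 in hepatocytes.

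The authors' deposited table of these livers had adjusted p under 0.05 for 6 of 8 members and 46.3% of its genes. In the authors' deposited table Cebpa was at -1.90, Onecut1 at -1.36, Hhex at -0.83, Onecut2 at -0.55, Prox1 at -0.27 and Gata6 at 0.50, while Gata4 (-0.02) and Tbx3 (0.12) were not called.

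The members differed strongly in how they change during liver development, per the authors' deposited tables against adult samples, whose fetal and newborn samples were not analysed here. In the authors' deposited table of hepatoblasts, fetal precursors of hepatocytes and bile duct cells, 7 of 8 members had adjusted p under 0.05, as did 79.2% of all its genes. Gata6 (log2 fold change 4.33), Gata4 (3.71), Tbx3 (1.53) and Prox1 (1.39) were higher in hepatoblasts in the authors' deposited table. Onecut2 (-2.68), Cebpa (-2.05) and Hhex (-1.73) were lower, and Onecut1 was not called (1.00, adjusted p = 0.398), by the authors' deposited table. In newborns, the authors' deposited table called Prox1 higher (2.16) and Hhex (-1.42) and Onecut2 (-1.29) lower, 3 of 8 against 63.3% of genes.

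In the authors' deposited table that sets the triple null directly against hepatoblasts, all 8 members had adjusted p under 0.05, as did 81.2% of genes. There Gata4 was at -4.62, Gata6 at -3.88 and Onecut1 at -2.41 in the triple null, while Cebpa was at 3.10, Onecut2 at 1.47 and Hhex at 0.80, per the authors' deposited table.

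**Figure D3:**
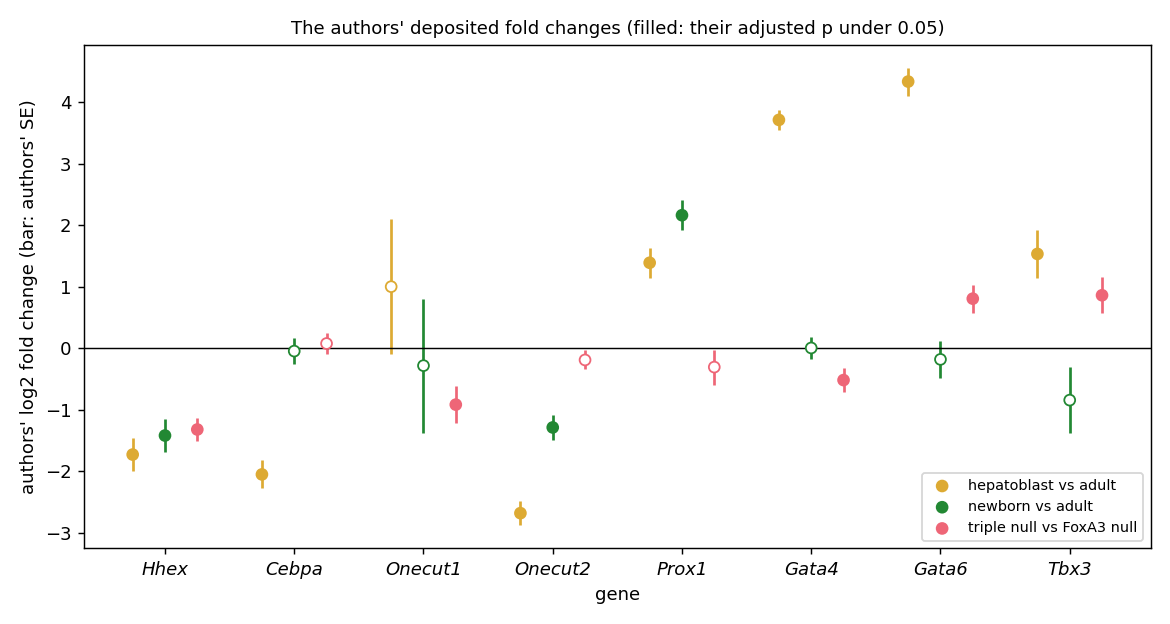
The authors' log2 fold changes (y axis) with their standard errors for each member in hepatoblasts and newborns against adult, and in the triple null against FoxA3 null; filled points have the authors' adjusted p under 0.05. Gata6 and Gata4 lie highest in hepatoblasts (4.33 and 3.71), and Hhex lies below 0 in all 3 (-1.73, -1.42 and -1.32).

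Genes that mark pericentral hepatocytes or respond to Wnt signalling, the zone in which Tbx3 is made, rose in the triple null against FoxA3 null. Of 16 listed, all in the fit, 10 rose and none fell, with a median of 0.85 beside 0.05 for all genes, of which 17.4% rose. The 10 include Nkd1, at 1.18 to 2.05 RPKM in the triple null and at most 0.496 in its reference. Nkd1 reached the minimum level through the triple null alone, so its rise does not count as a test. Lect2, a secreted hepatokine, rose from a mean of 116 to 1268 RPKM (3.46 ± 0.21, SE, limma adjusted p = 2.38e-08). Oat, ornithine aminotransferase, rose by 2.75 and Rhbg, an ammonia transporter, by 2.70. Of 11 periportal genes, from the opposite zone, 4 fell and none rose, while 12.3% of all genes fell: the urea cycle enzyme Cps1 (-2.16) and the lipid droplet protein Hsd17b13 (-1.28) were among them. In Cre alfp against lox, where 2.84% of all genes rose and 2.62% fell, only Lhpp of the pericentral list rose (1.03) and no periportal gene passed, and the pericentral median was 0.40 beside 0.02 for all genes. In the interaction, the direct test of this contrast, 4 of 16 pericentral genes passed, all higher, and 4 of 11 periportal genes, all lower, against 14.4% of all genes in either direction. In the liver libraries, where 41.1% of all genes rose and 11.7% fell, 7 of 13 pericentral genes rose and 3 fell, among them Oat (2.09 relative to the median of all genes), Lect2 (-1.62) and Rhbg (-1.45).

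**Figure D4:**
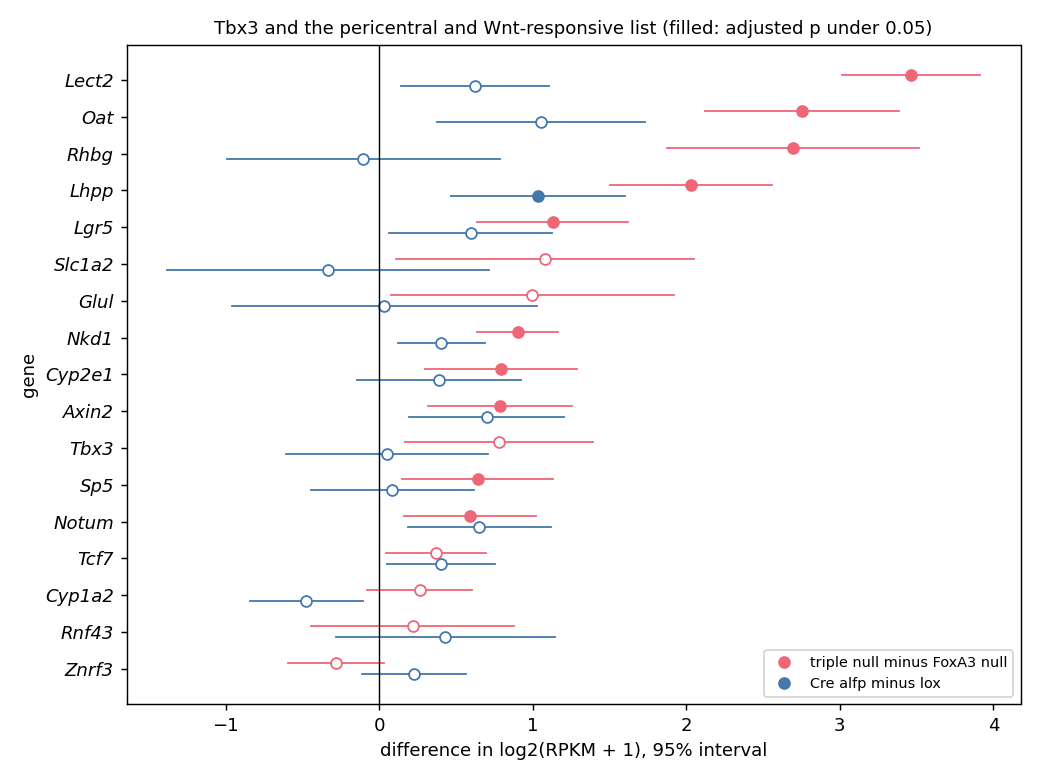
Differences in log2(RPKM + 1) (x axis) with 95% intervals of Tbx3 and the 16 pericentral and Wnt-responsive genes; red, the triple null minus FoxA3 null, and blue, Cre alfp minus lox; filled points have an adjusted p under 0.05. Tbx3 (0.78 and 0.05) is filled in neither, and 10 of the 16 are filled in the first comparison and 1, Lhpp, in the second. The 10 include Nkd1, which reached the minimum level only through the triple null, so its filled point is not a test.

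Among 32 other liver transcription factors, 6 rose and 4 fell in the triple null against FoxA3 null, a share near the 29.7% of all genes that passed. The zinc finger repressor Zbtb20 rose by 2.13, from a mean of 5.35 RPKM to 23.0, beside 22.4 in lox and 28.4 in Cre alfp. Usf2 fell by 0.86, from 43.6 RPKM to 23.7, beside 17.6 in lox and 22.2 in Cre alfp. FoxA3 null thus had the lowest Zbtb20 mean and the highest Usf2 mean of the hepatocyte groups. In Cre alfp against lox only Usf1 rose (0.49). In the liver libraries 8 rose and 9 fell, while 41.1% of all genes rose and 11.7% fell, and relative to the median of all genes the carbohydrate response factor Mlxipl was at -1.23, the fasting factor Creb3l3 at -1.22 and the repressor Bcl6 at -1.55.

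Of 18 family members of the 8 genes, only 4 were tested in hepatocytes and 5 in liver, the rest being too low. Cebpe, a relative of Cebpa, fell in the triple null from a mean of 8.49 to 1.92 RPKM (-1.72 ± 0.17, SE, limma adjusted p = 3.82e-06). In liver its mean was 3.23 in the controls and 0.0356 in the libraries labelled HNF4a null, where it was at most 0.142. Cebpe reached the minimum level in liver only through the controls (3.12 and 3.33), so this difference does not count as a test. Cebpb rose by 0.65 in the triple null (limma adjusted p = 0.0312), and in the liver libraries Cebpb (-1.08) and Cebpg (-0.71) were lower relative to the median of all genes. Of 13 tested partners and cofactors of the members, 4 rose and 2 fell in the triple null, led by the corepressors Ncor1 (1.10) and Tle3 (0.90) and by Cited2 (0.81), and none passed in Cre alfp against lox. The shares of all genes that passed in these comparisons were 29.7% and 5.46%. Ncor1 passed in FoxA3 null against lox as well, being lower in FoxA3 null, where 34.8% of all genes passed. In the liver libraries 6 of 14 partners rose and 2 fell, where 52.8% of all genes passed, led relative to the median by the demethylase Kdm1a (1.15), Trib1 (-0.82), which promotes the breakdown of Cebpa protein, and Tle1 (-0.75).

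Fetal liver genes were low. Of 10 listed, only Afp, the fetal counterpart of albumin, reached the minimum level in hepatocytes, and only through FoxA3-deficient libraries, so no test is given for it across FoxA3 status. Its group means were 0.440 (lox), 0.652 (Cre alfp), 0.932 (FoxA3 null) and 1.07 RPKM (triple null), and it did not pass in the triple null against FoxA3 null (0.10). In the liver, H19 and Dlk1 reached the minimum only through the libraries labelled HNF4a null, with means of 3.93 and 0.776 RPKM there, against 0.428 for H19 in the controls, where Dlk1 was listed at 0. Afp, under the minimum there, averaged 0.241 RPKM against 0.710 in the controls.

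The genes with the profile most like Hhex over the 15 hepatocyte libraries were Ugt2b35 and Slc23a2, at root mean square differences of 0.44 and 0.46 on the centred log2 scale. Those most like Gata6 were Metap2 and Ptger1, both at 0.16. The profiles of Hhex and Gata6 themselves had root mean squares of 0.75 and 0.32.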

How the data were processed

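Expression was the RPKM per gene that the authors deposited as 1 matrix. Per the submitters' processing notes the tools were SAMtools, Cufflinks 2.2.1 and DESeq2 and the build mm9; the aligner is not given in the sources used here, nor is the handling of overlapping genes or of strand. Of its columns 21 were matched to a sample or group; another 9 fit no sample and stayed out. The authors' deposited comparison tables give p-values and log2 fold changes, with standard errors in all but that against controls without deletion; signs were turned where the control stood first, and adjusted p for the Cre alfp table was computed here from its p-values. The authors' HNF4a peak list was not used.

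From the RPKM, log2(RPKM + 1) was computed, and limma 3.58.1 (lmFit, eBayes with trend; R 4.3.3) gave the tests. All 15 hepatocyte libraries entered 1 fit, of genes with RPKM at least 1 in at least 3 libraries, and the 6 liver libraries another, with at least 2. Benjamini-Hochberg adjustment ran over all genes tested, and the procedure was tested on simulated data. No library was a duplicate of another (highest correlation 0.980). RPKM gives no absolute depth, so depth is relative, from the steps between low values. Alternatives were another pseudocount (0.1), lower or no filters, median and quantile scaling, a minimum difference of 1, a fit of the compared groups alone, a replicate block and leaving out each library. The 8 members, 15 gene lists and tests were chosen with earlier results of these data known. Named from each list were the up to 3 passing genes with the largest difference, and, for each member that passed in the triple null against FoxA3 null, the 2 genes with the nearest profile; 2 genes that this rule picks are not reported here. S100a8 and S100a9 were named after their values were seen. Promoters came from RefSeq.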

Additional observations from a re-analysis of the deposited data

Results flagged for a closer look

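The Hhex difference of differences, -1.75 between FoxA1 and FoxA2 deletion without and with FoxA3, passed its own test. Single libraries stood apart from the others of their group, by Dixon's test at the 95% level, in 4 of 32 member and group combinations of 4 libraries, where chance gives about 1 in 20. These were Onecut1 (5.04 RPKM) and Cebpa (361 RPKM) in triple null library 3, Hhex (13.7 RPKM) in triple null library 1, and Prox1 (4.55 RPKM) in Cre alfp library 2.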

How the results depend on the processing

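No member reversed its direction where it was called. The interaction count of 1 fell to 0 with a pseudocount of 0.1, with RPKM at least 0.1, with no filter and with the replicate block, and was 0 to 1 with 1 library left out. The liver count of 4 was 2 with no filter (Cebpa and Gata6), 2 with median scaling and 2 with quantile normalization (Onecut1 and Cebpa), 1 with a minimum difference (Cebpa), and 2 to 3 with 1 library left out. With a minimum difference, the count was 1 in the triple null against FoxA3 null, 2 against lox and 1 against Cre alfp. Leaving out 1 library gave 2 to 3 in the triple null against FoxA3 null, 0 in every fit of Cre alfp against lox, 4 to 6 in the triple null against lox, 3 to 5 against Cre alfp and 2 to 3 in FoxA3 null against lox. Same-numbered libraries, each taken as its deviation from the group mean, had correlations from -0.36 to 0.17. The same number gave the highest correlation only for libraries 1 and 3 of the triple null against lox. With so few libraries per group, this can neither show nor exclude pairing by number. With the replicate block Tbx3 passed in the triple null against FoxA3 null. The Hhex call in FoxA3 null against lox was lost with the block (1.07), with RPKM at least 0.1 or no filter (1.14 in both) and with median (1.04) or quantile (1.07) scaling. Absolute depth is unknown, so the counting error behind each RPKM could not be given.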
